A study of Homo sapiens with 4 samples.

Results

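Tight junctions close the space between neighbouring epithelial cells and set which ions and solutes may pass between them. In hepatocytes they separate the bile canaliculus from the blood side of the cell. Their strands are built of claudins, membrane proteins that either seal the space or line a pore through it. Other membrane proteins of the junction, such as occludin and the junctional adhesion molecules, and cytoplasmic scaffolds that tie the strands to actin complete the structure. The 10 genes described here are 7 claudins (CLDN1, CLDN2, CLDN4, CLDN6, CLDN7, CLDN12 and CLDN14), occludin (OCLN), the scaffold ZO-1 (TJP1) and the junctional adhesion molecule JAM-A (F11R), out of 46427 genes in the tables. The set was chosen by name because 1 of its members, CLDN2, is among the genes that the study selected on the change with COP1-siRNA in these libraries. The TPM values with and without COP1-siRNA therefore chose it, and the changes with the siRNA are given as a description with no test. The rule for that choice did not use the difference between the cell lines, which was tested. Earlier results of these data were known when the members and lists were chosen.

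RNA was measured in Huh7 and HepG2, established human cell lines that the labels give as hepatocellular carcinoma and as wild type. Cells of each line received 20 nM of either NC-siRNA, a negative control, or COP1-siRNA, which targets the ubiquitin ligase COP1, by lipofection for 5 h, and were harvested 48 h later. Each of the 4 conditions has a single library, which leaves 2 per line, so every line difference rests on 2 libraries that differ in the siRNA and may share a culture. All 4 libraries carry the same batch label. Polyadenylated RNA was sequenced, and levels are given as TPM, a value corrected for gene length that sums to 1000000 in each library. Depth is known only in relative terms: the highest coverage per unit of FPKM was 6.59 and 7.47 in Huh7 with NC-siRNA and COP1-siRNA, and 5.75 and 7.31 in HepG2. The level of COP1 itself was 19.7 TPM in the Huh7 control library against 6.18 TPM after knockdown, and 26.9 against 16.1 TPM in HepG2. All 10 hepatocyte markers examined were above 1 TPM in every library, with a summed level of 20346 and 18218 TPM in the Huh7 libraries and 2676 and 3088 TPM in those of HepG2. Of 10 markers of fibroblasts, endothelium and leukocytes, DCN, PTPRC and CD3E were listed at 0 in every library and 7 stayed under 1 TPM throughout. Those above it were CD68, between 15.6 and 58.2 TPM, COL1A1 in HepG2 and PECAM1 in Huh7. In bulk RNA, fewer cells with a transcript and less of it per cell cannot be told apart.

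The promoter sequences of CLDN1, CLDN4, CLDN6 and CLDN2 are shown because the first 3 were the members past 1.5-fold in HepG2 on the log2(TPM + 1) scale and CLDN2 is the gene that brought the set into view. Each window holds the 250 bases before a RefSeq start site on GRCh38.p14, read 5′ to 3′ on the gene's own strand. Capitals mark a GC box (GGGCGG, or CCGCCC where it lies on the other strand) or an AP-1 motif (TGANTCA). An E-box (CACCTG) and a CDX motif (TTTATG) were searched on both strands too, and neither was in these windows.
CLDN1, chr3:190322447-190322696, minus strand: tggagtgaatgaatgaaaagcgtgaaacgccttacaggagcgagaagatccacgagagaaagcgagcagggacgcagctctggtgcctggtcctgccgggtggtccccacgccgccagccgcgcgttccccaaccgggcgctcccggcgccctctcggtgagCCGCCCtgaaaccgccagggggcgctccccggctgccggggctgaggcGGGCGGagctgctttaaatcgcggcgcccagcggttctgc
CLDN4, chr7:73830746-73830995, plus strand: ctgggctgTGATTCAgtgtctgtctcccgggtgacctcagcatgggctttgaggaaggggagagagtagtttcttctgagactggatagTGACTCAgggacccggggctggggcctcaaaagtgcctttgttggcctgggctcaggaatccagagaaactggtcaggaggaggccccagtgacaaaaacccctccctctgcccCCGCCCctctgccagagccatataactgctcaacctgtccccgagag
CLDN6, chr16:3018184-3018433, minus strand: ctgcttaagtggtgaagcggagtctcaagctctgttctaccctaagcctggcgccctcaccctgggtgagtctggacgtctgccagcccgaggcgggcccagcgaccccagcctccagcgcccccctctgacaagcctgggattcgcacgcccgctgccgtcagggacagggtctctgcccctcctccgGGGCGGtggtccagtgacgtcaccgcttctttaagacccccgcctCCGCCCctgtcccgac
CLDN2, the first start, chrX:106899914-106900163, plus strand: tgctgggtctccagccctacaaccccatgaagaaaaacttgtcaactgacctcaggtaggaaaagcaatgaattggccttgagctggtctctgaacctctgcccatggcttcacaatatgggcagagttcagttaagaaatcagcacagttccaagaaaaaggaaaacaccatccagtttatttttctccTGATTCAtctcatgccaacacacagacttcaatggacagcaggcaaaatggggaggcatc
CLDN2, the second start, chrX:106918110-106918359, plus strand: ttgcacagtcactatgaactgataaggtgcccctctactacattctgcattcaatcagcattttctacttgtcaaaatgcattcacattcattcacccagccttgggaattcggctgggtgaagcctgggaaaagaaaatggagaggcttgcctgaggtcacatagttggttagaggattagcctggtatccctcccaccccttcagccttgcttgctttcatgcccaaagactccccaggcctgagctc

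The windows of CLDN1 and CLDN6 each hold 2 GC boxes and no other motif searched. That of CLDN4 holds 1 GC box and 2 AP-1 motifs, which begin 242 and 161 bases before the start. The first start of CLDN2 has 1 AP-1 motif 60 bases before it, and the second start has none of the motifs. Of 35116 promoter windows of the same length, 42.6% hold a GC box, 6.57% an AP-1 motif, 17.5% the E-box and 9.64% the CDX motif. Of the motifs searched, CLDN1, CLDN4 and CLDN6 share the GC box only. It is not particular to them. Among members whose windows are not shown, OCLN, TJP1 and CLDN7 also have a GC box in a window. CLDN12 and CLDN14 have none. Such matches describe letters in a window and are not sites of binding.

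The most abundant claudins differed between the lines. CLDN1, a sealing claudin that is also an entry factor of hepatitis C virus, was at 323 and 298 TPM in Huh7 with NC-siRNA and COP1-siRNA and at 6.84 and 13.6 TPM in HepG2. CLDN6, a claudin of embryonic epithelia that reappears in some tumours, was at 157 and 158 TPM in Huh7 and at 7.86 and 13.7 TPM in HepG2. CLDN4, a barrier-forming claudin, ran the other way, with 0.172 and 0.184 TPM in Huh7 and 6.89 and 13.8 TPM in HepG2. For each of these 3 genes the libraries of a line lay on the same side of both libraries of the other line.

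CLDN12, a claudin that lacks the usual scaffold-binding end, was at 18.5 and 16.0 TPM in Huh7 and at 36.5 and 30.0 TPM in HepG2, higher in HepG2 with either siRNA. CLDN7, found on the sides of many epithelial cells, was at 0.921 and 1.30 TPM in Huh7 and was listed at 0 in both HepG2 libraries. The channel-forming CLDN2 was at 0.291 and 0.903 TPM in Huh7 and at 0.172 and 0.675 TPM in HepG2. CLDN14, known from the inner ear and kidney, was at 0.234 and 0.150 TPM in Huh7 and at 0.041 and 0.121 TPM in HepG2. CLDN2 and CLDN14 were thus under 1 TPM everywhere and were not tested between the lines. The values of CLDN2 overlapped between the lines. Those of CLDN14 were lower in HepG2, though close with COP1-siRNA, at 0.150 TPM in Huh7 and 0.121 TPM in HepG2.

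The members that are not claudins varied less. OCLN, which also serves hepatitis C virus entry, was at 15.6 and 16.1 TPM in Huh7 and 10.96 and 10.4 TPM in HepG2. F11R was at 35.4 and 37.0 TPM in Huh7 and 23.9 and 27.0 TPM in HepG2. TJP1 was at 22.2 and 24.9 TPM in Huh7 and 24.3 and 25.4 TPM in HepG2, and was the 1 member among these 3 whose values overlapped between the lines.

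**Figure D1:**
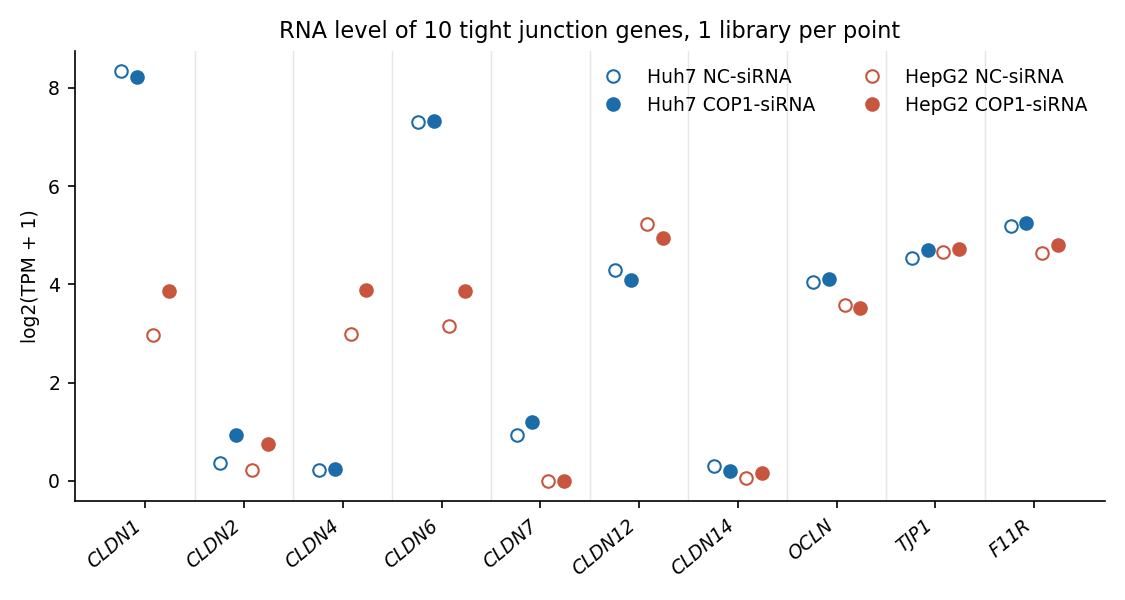
Level of each of the 10 genes in each of the 4 libraries, as log2(TPM + 1), with open points for NC-siRNA and filled points for COP1-siRNA, blue for Huh7 and red for HepG2. CLDN1 and CLDN6 lie far higher in Huh7 and CLDN4 in HepG2, while TJP1 lies at 22.2 to 25.4 TPM in all 4 libraries.

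In Huh7 the order of levels was CLDN1, CLDN6, F11R, TJP1, then CLDN12 and OCLN, then CLDN7, CLDN2, CLDN14 and CLDN4. The ranges over the 2 Huh7 libraries overlapped for CLDN12 and OCLN and for CLDN14 and CLDN4, and the order of those neighbours changed between the libraries. The 2 libraries differ in the siRNA, so their range is not a spread of replicates. In HepG2 CLDN12 was highest, followed by F11R and TJP1 with overlapping ranges, then OCLN, and then CLDN6, CLDN4 and CLDN1, whose ranges also overlapped. OCLN, at 10.96 and 10.4 TPM in HepG2, fell inside the ranges of those 3 claudins as well. CLDN2, CLDN14 and CLDN7 came last.

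Between the lines, 7 of the 8 members tested were called at an adjusted p under 0.05 in a limma fit over all genes with the siRNA as a term, 5 higher in Huh7 and 2 higher in HepG2. Among all 15486 genes tested the share called was 78.5%, so the share of members called is near the background. The fit took genes with at least 1 TPM in any library. CLDN4 reached this level in HepG2 only and CLDN7 in Huh7 only, each in the line where it was higher. The calls of CLDN4 and CLDN7 are thus a description. The fit had 1 residual degree of freedom per gene. The median difference of all tested genes, Huh7 minus HepG2 on the log2(TPM + 1) scale, was −0.36, and −0.06 when TPM was divided by median-of-ratios size factors, a shift of 0.29. Calls with at least a 4-fold difference made up 13.3% of tested genes and covered 3 of the 8 members: CLDN1 and CLDN6, higher in Huh7, and CLDN4, higher in HepG2.

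CLDN1 was 4.86 ± 0.23 (SE, 2 libraries per line) log2 units higher in Huh7, with an adjusted p of 1.35e-05 in limma, and 30.4-fold higher as a ratio of mean TPM. CLDN6 was 3.80 ± 0.17 log2 units higher in Huh7, with an adjusted p of 1.22e-05 and a ratio of 14.7. CLDN4 had a difference of −3.20 ± 0.23, with an adjusted p of 6.33e-05, and was 58.2-fold higher in HepG2 as a ratio of means that rests on under 0.2 TPM in Huh7. Both CLDN1 and CLDN6 differed by less between the COP1-siRNA libraries than between the NC-siRNA libraries, 4.36 against 5.37 for CLDN1 and 3.44 against 4.16 for CLDN6. For CLDN4 the difference went from −2.75 between the NC-siRNA libraries to −3.65 between the COP1-siRNA libraries.

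CLDN12, OCLN, F11R and TJP1 were closer between the lines. CLDN12 had a difference of −0.90 ± 0.09 and an adjusted p of 0.000266. OCLN was 0.53 ± 0.11 higher in Huh7 with an adjusted p of 0.00437, and F11R 0.49 ± 0.09 higher with an adjusted p of 0.00324. CLDN7 was called too, with an adjusted p of 0.00195 in limma. No fold is given because it was listed at 0 in HepG2, so the size depends on the value added to TPM. TJP1 missed the threshold, with a difference of −0.08 ± 0.09 and an adjusted p of 0.472. After median-of-ratios scaling the difference of TJP1 was 0.24 with an adjusted p of 0.0564.

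**Figure D2:**
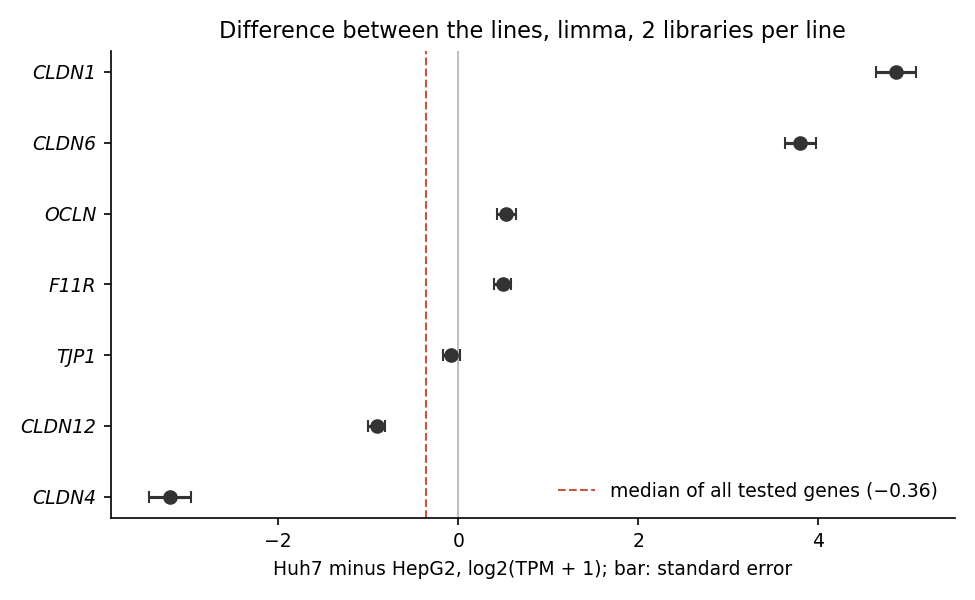
Difference between Huh7 and HepG2 in log2(TPM + 1) for the 7 tested members with a level above 0 in both lines, as the limma estimate with its standard error as bars. The dashed line at −0.36 is the median of all tested genes. CLDN1 at 4.86 and CLDN6 at 3.80 lie far to the right and CLDN4 at −3.20 far to the left of the other 4, which lie between −0.90 and 0.53.

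As a family, the 24 claudin genes found summed to 512 and 486 TPM in Huh7 with NC-siRNA and COP1-siRNA and to 66.7 and 81.5 TPM in HepG2. The Huh7 total was 7.68 times that of HepG2 with NC-siRNA and 5.96 times with COP1-siRNA. In Huh7, CLDN1 made up 63.1% and 61.2% of the claudin total and CLDN6 30.6% and 32.6%. In HepG2, CLDN12 made up 54.7% of it with NC-siRNA and 36.7% with COP1-siRNA, and most of the rest was CLDN1, CLDN4, CLDN6 and CLDN15. The share of CLDN4 in HepG2 went from 10.3% to 17.0%, that of CLDN1 from 10.3% to 16.7% and that of CLDN6 from 11.8% to 16.8%.

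**Figure D3:**
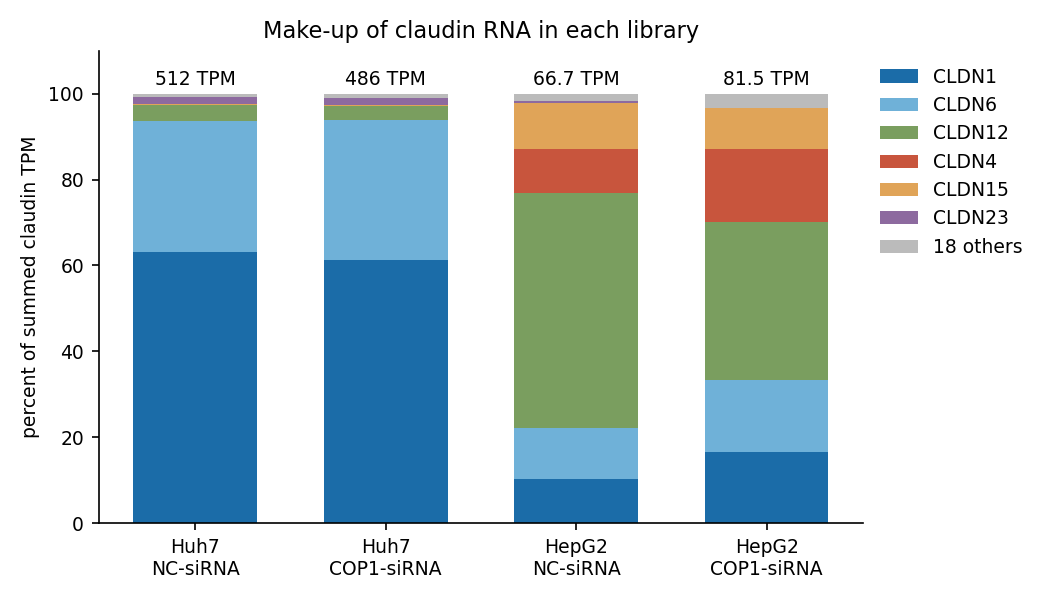
Share of each claudin in the summed claudin TPM of each library, in percent, with the sum above each bar and the 18 least abundant claudins drawn together. CLDN1 and CLDN6 fill most of the Huh7 bars, and CLDN12 is the largest share of the HepG2 bars at 54.7% and 36.7%.

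Of the 17 claudins outside the set, 9 were listed at 0 in every library and 4 reached 1 TPM in any. CLDN15, a pore-forming claudin of the gut, was at 0.937 and 0.817 TPM in Huh7 and at 7.17 and 7.70 TPM in HepG2, where it made up 10.8% and 9.44% of claudin TPM. CLDN23 was at 8.46 and 8.06 TPM in Huh7 and at 0.219 and 0.042 TPM in HepG2. CLDN16 and CLDN19, which pair in kidney magnesium uptake, stayed at or under 1.92 and 1.01 TPM. CLDN15 (adjusted p of 4.30e-05 in limma), CLDN23 (1.52e-05) and CLDN16 (0.000427) were called between the lines and CLDN19 (0.161) was not. Each of the called genes reached 1 TPM only in the line where it was higher, so its call is a description.

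No tested member passed 2-fold with COP1-siRNA in either line on the log2((TPM + 1)/(TPM + 1)) scale, which understates the change of genes with low TPM. In Huh7, 0 of the 7 members with at least 1 TPM in a library were 2-fold higher or lower, beside 0.638% and 0.446% of all 13000 genes tested. In HepG2, 0 of 7 members were, beside 0.54% and 0.394% of 14456 genes tested. With 1 library per group there is no test of these changes and no replicate check. The members nearest to 2-fold were CLDN4 at 0.91 in HepG2 and CLDN7 at 0.26 in Huh7.

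In HepG2, 3 members, CLDN1, CLDN4 and CLDN6, were at least 1.5-fold higher with COP1-siRNA, and the share among all tested genes was 2.56%, or 2.12% among the 4386 genes with a mean of 5 to 20 TPM. CLDN4 had a log2 change of 0.91 and a plain TPM ratio of 2.01, CLDN1 a change of 0.90 and a ratio of 1.99, and CLDN6 a change of 0.73 and a ratio of 1.74. The added TPM was 6.94 for CLDN4, 6.75 for CLDN1 and 5.80 for CLDN6, and CLDN12 lost 6.53 TPM with a log2 change of −0.28. The summed TPM of the 3 claudins went from 21.6 to 41.1 in HepG2. In Huh7 their sum went from 480.3 to 456 TPM, and their log2 changes were −0.12 for CLDN1, 0.02 for CLDN4, which was under 1 TPM there, and 0.01 for CLDN6. Over the 7 members tested the median change was 0.17 in HepG2 and 0.05 in Huh7, beside medians of −0.01 and −0.001 over all tested genes.

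CLDN2 was below the level for the comparison in each line and is given by its values alone. Its log2(TPM + 1) change was 0.56 in Huh7 and 0.51 in HepG2, and its plain TPM ratio 3.10 and 3.92. With 0.1 added in place of 1, the changes were 1.36 and 1.51. The coverage of CLDN2 multiplied by its exon length gave about 652 and 2389 aligned bases in Huh7 and 359 and 1764 in HepG2, which is a small number of reads. Its coverage per unit of FPKM was 24.5% of the library's highest in every library, so these sums may be underestimates. The corresponding sums for CLDN4 in Huh7 were 779 and 988 bases, and for CLDN14 they lay between 127 and 781. For CLDN1, by comparison, they lay between 62418 and 3446107.

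The other members stayed within 1.5-fold in both lines on the same scale. CLDN12 changed by −0.20 in Huh7 and −0.28 in HepG2, TJP1 by 0.16 and 0.06, F11R by 0.06 and 0.17, and OCLN by 0.05 and −0.07. CLDN7 changed by 0.26 in Huh7. CLDN14 changed by −0.10 in Huh7 and 0.11 in HepG2 at levels under 0.3 TPM. The values of CLDN12 were thus below 0 in both lines and those of TJP1 and F11R above 0 in both.

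**Figure D4:**
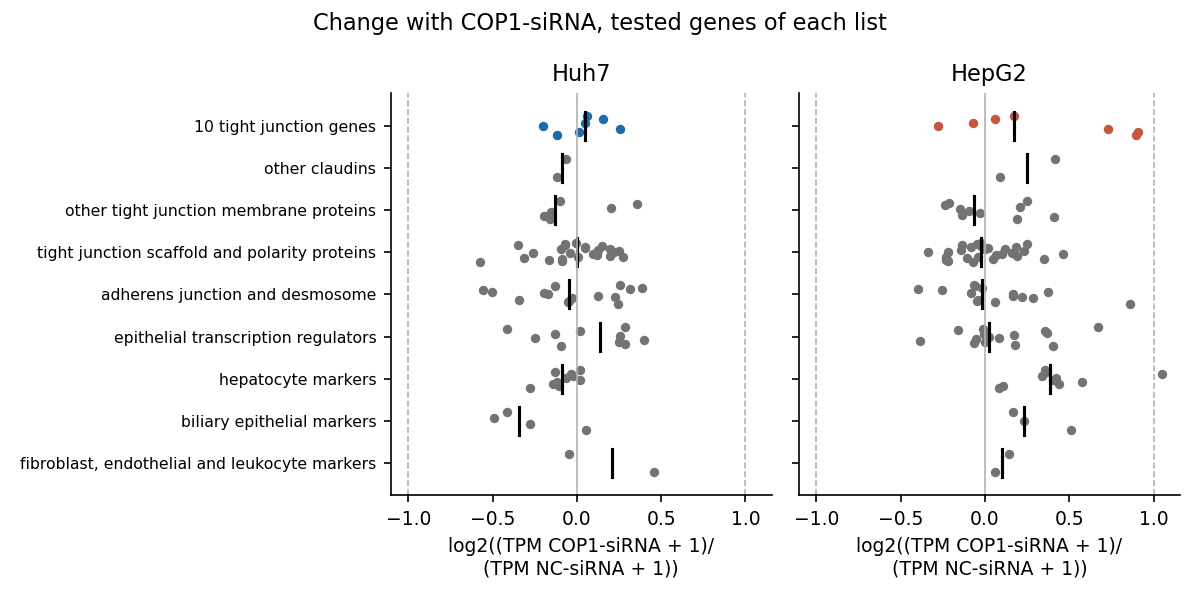
Change with COP1-siRNA, as log2((TPM + 1)/(TPM + 1)), of each tested gene of each list in Huh7 (left) and HepG2 (right), with a black bar at the list's median and dashed lines at 2-fold. In HepG2, CLDN1, CLDN4 and CLDN6 lie apart from the other members at 0.73 to 0.91, and all 10 hepatocyte markers lie above 0.

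Genes of the same junction from other lists stayed within 2-fold in both lines. Of 12 other tight junction membrane proteins, 6 were tested in Huh7 and 10 in HepG2, with medians of −0.13 and −0.06. Of 28 scaffold and polarity proteins, 24 and 27 were tested, with medians of 0.002 and −0.02. Of the 16 adherens junction and desmosome genes, 15 were tested in each line, with medians of −0.05 and −0.02. CDH1, which encodes E-cadherin, was the 1 gene of that list past 1.5-fold in HepG2, from 5.92 to 11.5 TPM with a change of 0.86, and was at 23.7 and 28.3 TPM in Huh7. CDH1 was named after its value was seen.

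Hepatocyte markers were also higher with COP1-siRNA in HepG2, the line in which these claudins were. All 10 had a change above 0 there, with a median of 0.39, while 48.3% of all tested genes were above 0. FGB, a fibrinogen chain, went from 6.97 to 15.5 TPM, a change of 1.05, and was the 1 marker past 2-fold. In Huh7, 2 of the 10 were above 0 and the median was −0.09, with FGB at 2461 and 2403 TPM. The summed level of the 7 biliary epithelial markers went from 95.5 to 125 TPM in HepG2 and from 257.5 to 250.4 TPM in Huh7, with median changes of 0.23 over 3 tested genes and −0.35 over 4. With no minimum TPM the Huh7 median was 0.05. KRT7 and CFTR stayed under 1 TPM in every library. The 2 tested markers of fibroblasts, endothelium and leukocytes had a median of 0.10 in HepG2 and 0.21 in Huh7, where it was −0.05 with no minimum TPM. The part of any of these in the claudin changes was not tested. Among 21 epithelial transcription regulators the medians were 0.02 over 15 genes in HepG2 and 0.13 over 10 in Huh7. ELF3, an epithelial factor, was at 0.662 and 1.64 TPM in HepG2, a change of 0.67, while Huh7 held 33.4 and 40.9 TPM.

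Between the lines, the counts called in these lists stand beside the 78.5% of all tested genes called, 4223 higher in Huh7 and 7933 higher in HepG2, or 5633 and 6217 after median-of-ratios scaling. Of 10 tested membrane proteins, 3 were called higher in Huh7 and 6 higher in HepG2. Among them LSR, a protein of contacts between 3 cells, was at 5.19 and 6.12 TPM in Huh7 and at 56.1 and 64.9 TPM in HepG2. JAM3, a relative of F11R, was listed at 0 in both Huh7 libraries and was at 25.2 and 24.6 TPM in HepG2. Of 27 scaffold and polarity genes, 11 were called higher in Huh7 and 13 higher in HepG2.

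Angiomotin and a relative of it were on opposite sides among the scaffold genes called at 4-fold or more. AMOT was at 0.851 and 1.20 TPM in Huh7 and at 148 and 134 TPM in HepG2, while AMOTL2 was at 69.5 and 79.6 TPM in Huh7 and at 5.99 TPM in each HepG2 library. Another relative, AMOTL1, lay on the side of AMOT but under the 4-fold cut. It was at 3.74 and 4.18 TPM in Huh7 and at 15.0 and 16.4 TPM in HepG2. AMOTL1 was named after its value was seen. CGNL1, a cingulin relative, was higher in Huh7 (10.8 and 9.53 against 1.35 and 1.99 TPM). The polarity genes PATJ (0.014 and 0.025 against 7.98 and 6.66 TPM) and PARD6A (0.771 and 0.889 against 5.40 and 7.83 TPM) were higher in HepG2. Of 16 adherens junction and desmosome genes, 9 were called higher in Huh7 and 3 in HepG2, PPL by at least 4-fold, with 5.51 and 6.79 TPM in Huh7 and 0.455 and 0.872 TPM in HepG2.

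Of the 16 transcription regulators tested, 8 were called higher in Huh7 and 7 in HepG2, again beside 78.5% of all tested genes called in either direction. ELF3 was higher in Huh7, by 4.18 log2 units. Repressors of epithelial genes lay on both sides. TWIST1 and SNAI2 were at 14.2 and 10.6 TPM and at 8.85 and 10.1 TPM in HepG2, with TWIST1 listed at 0 in both Huh7 libraries and SNAI2 at no more than 0.059 TPM there. SNAI1 was higher in Huh7, with 11.6 and 10.8 TPM against 1.66 and 2.51 TPM (adjusted p of 9.27e-05 in limma). TWIST2 and ZEB2 were called higher in HepG2, and ZEB1 was not called (adjusted p of 0.140). SNAI1, TWIST2, ZEB2 and ZEB1 were named after their values were seen. TFAP2A was higher in HepG2, with 58.2 and 52.1 TPM against 0.115 and 0.208. Of the hepatocyte markers, 9 were called higher in Huh7 and 0 in HepG2 in limma, the exception being APOA1 (adjusted p of 0.102). Among those furthest apart were FGB, TTR, AFP and TF, by 7.73, 4.38, 4.22 and 2.64 log2 units. Of the 4 biliary markers tested, 2 were called higher in Huh7 and 1 in HepG2, and of 3 fibroblast, endothelial and leukocyte markers 2 and 1, with PECAM1 higher in Huh7 by 2.73.

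Genes that overlap a member on the genome, and a copy of OCLN elsewhere, bear on how far single values can be read. CLDN1, on chromosome 3 from 190305707 to 190322446, lies wholly inside the span of CLDN16 on the opposite strand. The CLDN16 values in Huh7, 1.92 and 1.69 TPM, were 0.594% and 0.568% of those of CLDN1. Reads from any exon bases that such a pair shares cannot be told apart if strand was not used in counting. Whether their exons overlap was not examined. OCLN, on chromosome 5 from 69492547 to 69558104, has a pseudogene copy, OCLNP1, on the same chromosome. OCLNP1 was at 10.3 and 12.4 TPM in Huh7 and at 6.40 and 8.31 TPM in HepG2, so how reads were split between them could move OCLN. The summed TPM of both changed by 0.13 in Huh7 and 0.10 in HepG2, against −0.07 for OCLN alone in HepG2. CLDN7 shares 38 bases with ELP5 on the other strand, and ELP5 was at 34.3 to 75.8 TPM. HMGN2P5, inside TJP1 on the other strand, was at 14.9 and 14.6 TPM in Huh7 and 29.5 and 31.4 TPM in HepG2. RIPPLY1, which overlaps CLDN2, and CLDN14-AS1, which overlaps CLDN14, were at no more than 0.173 and 0.256 TPM. PSMD4P1 in CLDN14, SNORD13B-1 in OCLN and the unnamed gene 112267985 over CLDN12 were listed at 0 in every library.

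The pattern of CLDN2 over the 4 libraries was compared with those of 14531 genes with at least 0.1 TPM in every library, by the distance between log2(TPM + 1) profiles centred on their means. The nearest were the non-coding RNA LINC01431 (0.316 and 0.971 TPM in Huh7, 0.280 and 0.838 TPM in HepG2), at a distance of 0.092, and NAPEPLD, SFXN3, KIN and SERPINA4, at 0.093 to 0.134. The levels of NAPEPLD were 3.65 and 5.25 TPM in the Huh7 libraries and 3.05 and 4.77 TPM in those of HepG2. SFXN3, KIN and SERPINA4 were at 4.42 to 7.80 TPM in Huh7 and 3.82 to 6.55 TPM in HepG2 with NC-siRNA, and changed by 0.47 to 0.65 in Huh7 and by 0.55 to 0.64 in HepG2. The log2(TPM + 1) scale understates change at low TPM. The plain TPM ratios of CLDN2, 3.10 in Huh7 and 3.92 in HepG2, were larger than those of NAPEPLD, SFXN3, KIN and SERPINA4. Profiles of 4 libraries share their libraries and depth, so the distance is a description.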

How the data were processed

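The 4 gene tables deposited were made by the authors with FastQC 0.11.7, Trimmomatic 0.38, HISAT2 2.1.0 and StringTie 2.1.3b on GRCh38, per the submitters' processing notes, which also name edgeR without a role. The TPM deposited per gene sums to 1000000 per library, the FPKM that the authors deposited is scaled for gene length and depth, and the coverage deposited is the mean depth per base, not scaled. The tables hold no read counts, so precision per value is unknown. The column for gene names held no symbols, and genes were matched by NCBI Gene ID to RefSeq (GRCh38.p14), which held 96.3% of 46427 IDs and all 10 members. Lines with a repeated ID were summed. The strand setting of the counting is not given in the sources used here.

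Change with COP1-siRNA was log2((TPM + 1)/(TPM + 1)) in genes with at least 1 TPM in a library of the line. Lines were compared with limma 3.58.1 (R 4.3.3), with trend and the siRNA as a term, Benjamini-Hochberg over all genes, on log2(TPM + 1). Genes with at least 1 TPM in any library were tested. A gene that reached 1 TPM only in the line where it was higher entered through that line. Its call is a description. In data simulated with independent noise in each library, 200 of 200 genes changed 4-fold among 15486 were recovered and 15 others were called. The changed genes were drawn from those at higher levels, and the others had no line difference. These counts check that the limma fit ran as meant and do not measure its error rate in the real libraries. With 1 library per line and siRNA, the residual of this fit is how far the siRNA change of a gene differs between the lines, pooled over genes by limma, and holds no spread between replicate cultures.

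The members and lists were chosen with earlier results of these data known. Named genes were all members, claudins at 1 TPM or more in any library, genes overlapping a member, the 5 genes most like CLDN2, and up to 5 per list and comparison past 2-fold with COP1-siRNA or called and 4-fold apart between the lines, and some genes that this rule names are not reported here. Alternatives were other scalings, FPKM, coverage, pseudocounts, TPM minima, thresholds and fits. The plain TPM ratio, the 5 to 20 TPM band and the 4-fold call were chosen after seeing the data. Sums of aligned bases used exon lengths of GENCODE 29. Tools were Python 3.11.15, numpy 2.4.6, pandas 2.3.3 and matplotlib 3.10.9.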

Additional observations from a re-analysis of the deposited data

Results flagged for a closer look

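CLDN1 and OCLN changed in opposite directions in the lines, and the difference was not tested because each group had 1 library. CLDN1 changed by −0.12 in Huh7 and 0.90 in HepG2, a difference (HepG2 minus Huh7) of 1.01. OCLN changed by 0.05 and −0.07, a difference of −0.12. With upper-quartile scaling, which moved the median of all tested genes in Huh7 by 0.12 and in HepG2 by 0.08, the change of CLDN1 in Huh7 was 0.02 and that of OCLN in HepG2 was 0.01, so each gene then had the same direction in both lines. Under the other settings tried the directions stayed opposite for both genes.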

How the results depend on the processing

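No pairing by replicate was possible because each line and siRNA had 1 library, so no replicate number links libraries across groups. The siRNA term of the limma fit compares the lines within each siRNA. In HepG2, 3 members were past the threshold at 1.5-fold and 1 with the plain TPM ratio, against 0. With calls limited to 4-fold, 2 members were higher in Huh7 and 1 in HepG2, against 5 and 2. With a minimum of 5 TPM, 1 other claudin was called higher in Huh7 (2 with 1 TPM), and 2 other membrane proteins (6), 1 adherens junction and desmosome gene (3) and 0 fibroblast, endothelial and leukocyte markers (1) were called higher in HepG2 by limma. The adherens junction and desmosome count in HepG2 was 5 with FPKM, 5 with upper-quartile scaling and 1 with median-of-ratios scaling, and the hepatocyte count there was 1 with FPKM and 1 with upper-quartile scaling, against 0. Why these moved was not tested, apart from the minimum, which leaves fewer genes. The other list counts stayed within 1.5 times. Over the alternatives, the line difference lay between 4.64 and 5.18 for CLDN1, 3.60 and 4.12 for CLDN6, and −5.15 and −2.29 for CLDN4. The HepG2 changes lay between 0.78 and 0.98 for CLDN1, 0.79 and 0.99 for CLDN4 and 0.63 and 0.81 for CLDN6. The hepatocyte median in HepG2 lay between 0.34 and 0.47. TJP1 changed sign between the lines under 1 scaling. With upper-quartile scaling the Huh7 hepatocyte median was 0.05, and with coverage 0.01, against −0.09. The medians of the other tight junction membrane, scaffold and polarity, and adherens junction and desmosome lists were near 0 and turned sign in each line under at least 1 setting, as did that of the epithelial transcription regulators in HepG2. Values under 1 TPM, among them CLDN2, CLDN14 and CLDN4 in Huh7, rest on few aligned bases.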
